A study of Rattus norvegicus with 29 samples.

Results

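The nucleus accumbens (NAc) of the rat brain had a set of open chromatin regions (OCRs) at which peaks were called in most of its libraries and in few libraries of 3 other regions. Of the 98237 OCRs in the count table, 2438 (2.48%) overlapped a peak by at least 1 bp in 6 or more of the 8 NAc libraries, in 2 or fewer of the 5 libraries of the subventricular zone (SVZ), and in 2 or fewer of the 16 hippocampal libraries, 8 of the dentate gyrus (DG) and 8 of Ammon's horn (CA). They are called accumbens-called OCRs here. Because peak calls chose them, the difference between NAc and the other regions is given as a description, without a test.

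The NAc is the ventral part of the striatum and a main target of midbrain dopamine neurons, and most of its neurons are inhibitory medium spiny projection neurons. The hippocampal regions hold mostly excitatory granule and pyramidal neurons, and the SVZ is a stem cell niche along the wall of the lateral ventricle, next to the striatum. ATAC-seq reports where a transposase can reach the DNA, so read counts rise at promoters and enhancers that are open in the cells sampled, and distal open regions often differ between neuron types.

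Chromatin accessibility was measured in brain tissue of adult Sprague-Dawley rats, all male, as 29 libraries. Rats received 4 intraperitoneal injections, 2 h apart, of methamphetamine (METH, 10 mg/kg), a stimulant that releases dopamine, or of saline (1 mL/kg), and were killed the day after the last dose. Each treatment had 4 libraries per region in NAc, DG and CA, whereas SVZ had 3 after saline and 2 after METH. The names of the peaks traced the libraries to 8 animals, 4 per treatment, each used for several regions. No genetic change was involved. According to the study's methods, NAc and SVZ were punched from frozen slices of a single hemisphere and DG and CA were dissected, so every library was bulk tissue. In such tissue, a higher share of a cell type and more accessibility per cell cannot be told apart. The libraries held 7.55 to 19.44 M counts in OCRs (M, mega), and the levels below are counts per M (CPM) after upper quartile scaling, on which 1 read was worth 0.0459 to 0.118 CPM. Genes, promoters and sequence motifs at these OCRs were not analysed here, because no rn6 genome sequence or annotation was used, so marker genes of the dissected tissues were not checked either.

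A pair of libraries went against their labels, and results that rest on them are given with and without them. Over all OCRs, the log2 CPM of the library labelled NAc METH replicate 3 correlated on average at r = 0.818 with the other 7 NAc libraries and at r = 0.886 with the 4 SVZ libraries other than saline replicate 3. The library labelled SVZ saline replicate 3 correlated at r = 0.897 with those 7 NAc libraries and at r = 0.846 with those 4 SVZ libraries. These are descriptions across OCRs, which are not independent, and points share the library and its depth. The first library came from another animal than the second, and their depths were 11.1 and 7.55 M counts. Each of the other NAc and SVZ libraries had its highest mean correlation with its own region, whereas several DG libraries were closer to CA than to DG and the reverse.

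Both libraries stood apart at the accumbens-called OCRs too. A peak was called at 11.2% of them in NAc METH replicate 3, against 75.9% to 99.8% in the other 7 NAc libraries. In SVZ saline replicate 3 a peak was called at 73.9%, against 5.58% to 36.2% in the other 4 SVZ libraries. The hippocampal libraries had peaks at 0.123% to 13.8%, highest in CA saline replicate 4, which also had one of the largest numbers of peaks. Of the 2438 OCRs, 2164 lacked a peak in NAc METH replicate 3, and 655 had their only SVZ peak in SVZ saline replicate 3.

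**Figure D1:**
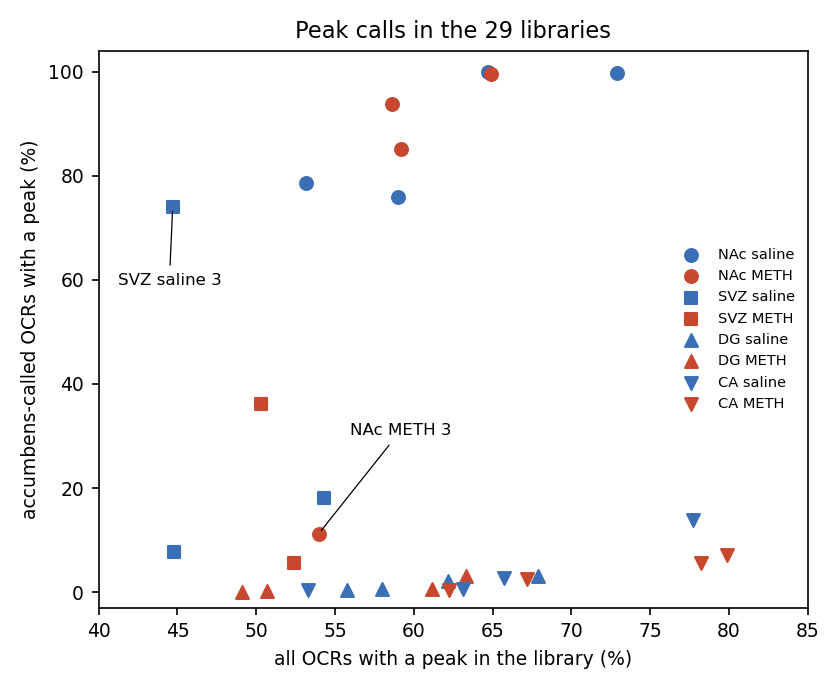
Each point is 1 of the 29 libraries, with the percent of all OCRs that carry a peak in it on the x axis and the percent of the 2438 accumbens-called OCRs that do on the y axis. A total of 7 NAc libraries lie at 75.9% or above on the y axis, NAc METH replicate 3 lies at 11.2%, and SVZ saline replicate 3 lies at 73.9%.

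The limits of the rule were met by differing margins. Peaks were present in 6 NAc libraries at 1422 of the OCRs, in 7 at 966 and in all 8 at 50. No hippocampal peak was present at 1685 OCRs, 1 at 429 and 2 at 324, whereas no SVZ peak was present at 258, 1 at 912 and 2 at 1268. Just 165 OCRs had no peak in any library of the 3 other regions. Most of the set was therefore without hippocampal peaks, but 2180 of its OCRs (89.4%) had a peak in at least 1 SVZ library.

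The counts gave the same order of regions and showed that the SVZ was not empty at these OCRs. The median CPM over the accumbens-called OCRs was 3.67 in the lowest, 4.62 in the middle and 6.05 in the highest of the 7 NAc libraries, and 1.38 in NAc METH replicate 3. In SVZ it was 2.48 and 2.52 in saline replicates 1 and 2, 5.32 in saline replicate 3, and 2.41 and 3.61 in the METH libraries. In the 16 hippocampal libraries it ran from 0.516 over a median of 0.932 to 1.24. The 7 NAc libraries lay above every hippocampal library and above the 4 SVZ libraries, and the 4 SVZ libraries lay above every hippocampal library, while NAc METH replicate 3 lay between the hippocampal and the SVZ libraries and SVZ saline replicate 3 among those of NAc.

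**Figure D2:**
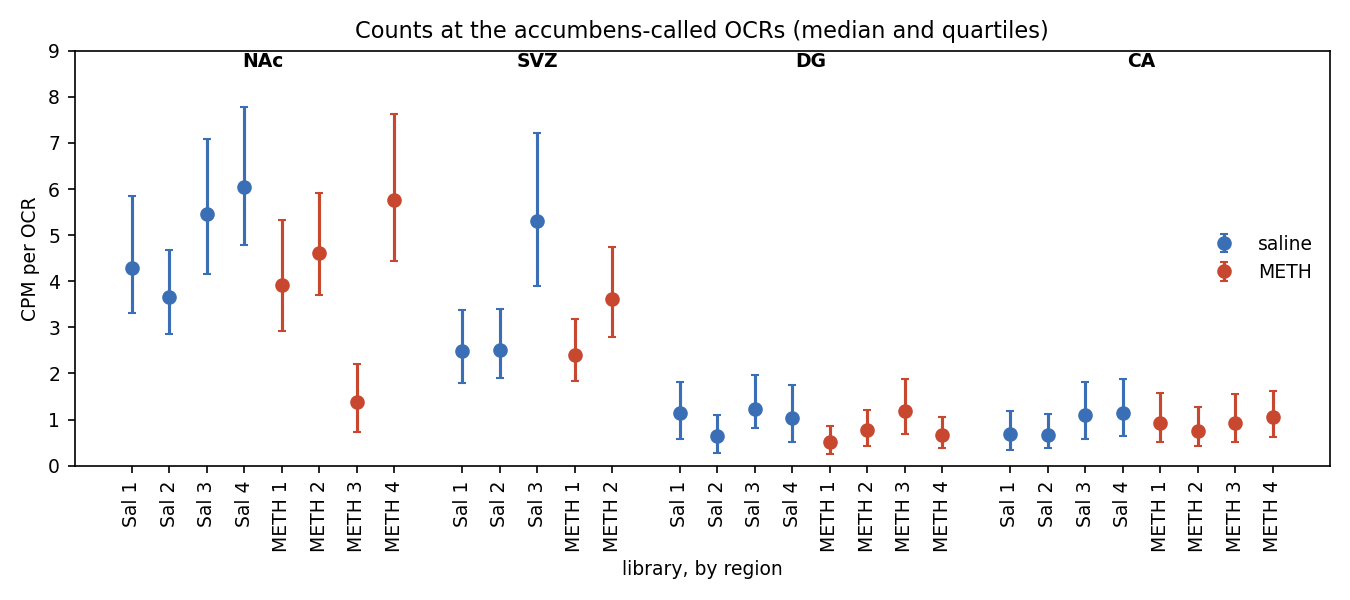
For each library, by region on the x axis, the point is the median CPM over the 2438 accumbens-called OCRs and the bar runs from the lower to the upper quartile. NAc medians lie between 3.67 and 6.05 except for METH replicate 3 at 1.38, SVZ medians between 2.41 and 3.61 except for saline replicate 3 at 5.32, and DG and CA medians between 0.516 and 1.24.

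As group values, the library medians averaged 4.39 ± 1.49 CPM (SD, n = 8) in NAc and 4.82 ± 0.934 (SD, n = 7) without METH replicate 3. They averaged 3.27 ± 1.25 (SD, n = 5) in SVZ and 2.75 ± 0.571 (SD, n = 4) without saline replicate 3. DG averaged 0.898 ± 0.281 (SD, n = 8) and CA 0.907 ± 0.186 (SD, n = 8), which differed by less than the spread between libraries. The OCRs took up 1.30% of the counts in the 7 NAc libraries, 0.774% in the 4 SVZ libraries and 0.276% in the hippocampal libraries, on average.

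Per OCR, the mean log2 CPM of the 7 NAc libraries exceeded that of the hippocampal libraries by a median of 2.30, and by more than 1 at 2377 of 2438 OCRs. The mean of the 4 SVZ libraries exceeded the hippocampal mean by a median of 1.49, and by more than 1 at 1964. NAc exceeded SVZ by a median of 0.81, and by more than 1 at 622. With all 8 NAc and 5 SVZ libraries, the NAc excess over SVZ shrank to a median of 0.38. On the log2 scale, the SVZ level therefore lay nearer to the NAc level than to the hippocampal level at the median OCR.

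**Figure D3:**
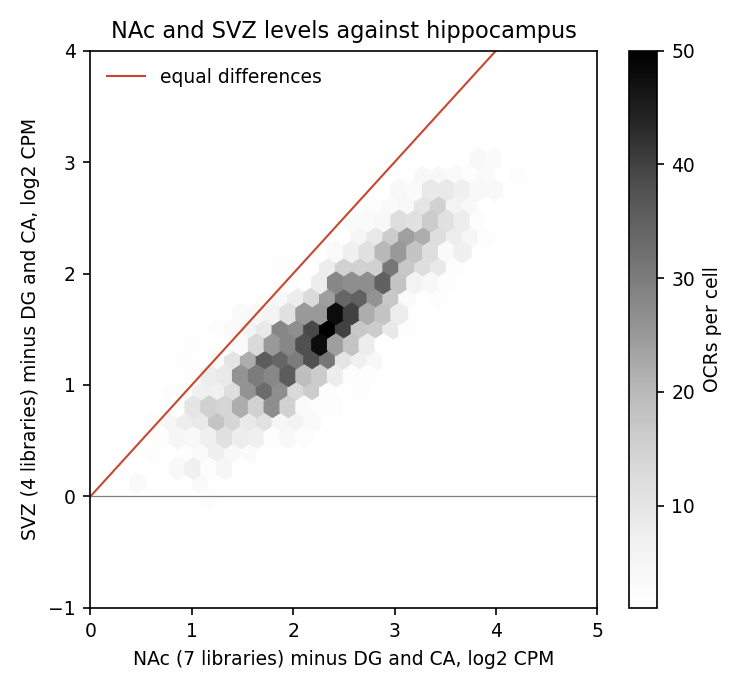
Each hexagon counts accumbens-called OCRs by the difference in mean log2 CPM between the 7 NAc libraries and the 16 DG and CA libraries (x axis) and between the 4 SVZ libraries and the same DG and CA libraries (y axis), with the line of equal differences. Most OCRs lie below the line and above 0 on the y axis, with medians of 2.30 and 1.49.

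Separation of single libraries was less complete than that of means. Every one of the 8 NAc libraries lay above all 16 hippocampal libraries at 533 accumbens-called OCRs (21.9%), against 2.13% of all OCRs, and the 7 NAc libraries without METH replicate 3 did so at 1748 (71.7%), against 6.69%. All 5 SVZ libraries lay above all hippocampal libraries at 1057 (43.4%), against 4.7%, and the 4 without saline replicate 3 at 1071 (43.9%), against 5.46%. All 8 NAc libraries lay above all 5 SVZ libraries at 4 OCRs (0.164%), a share close to the 0.174% of all OCRs. Without NAc METH replicate 3 and SVZ saline replicate 3 this count was 374 (15.3%), against 2.27% of all OCRs. The rule used these regions, so nothing is read from the difference between the shares.

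Compared with 2104 OCRs that met the same limits in NAc and hippocampus but had peaks in 3 or more SVZ libraries the accumbens-called OCRs had lower levels over the hippocampus in both NAc and SVZ. At those 2104 OCRs the median excess over the hippocampus was 2.66 in the 7 NAc libraries and 2.02 in the 4 SVZ libraries on the log2 scale, against 2.30 and 1.49 here. Their median NAc excess over SVZ was 0.64, against 0.81. At 2214 OCRs with 12 or more hippocampal peaks and at most 1 peak in each of NAc and SVZ, the median log2 difference was -1.53 between the 7 NAc and the hippocampal libraries and -0.35 between the 7 NAc and the 4 SVZ libraries, so the order of regions was turned there.

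The accumbens-called OCRs were narrow and of low count. Their median width was 524 bp, with quartiles of 436 and 639 bp, against 662 bp for all OCRs and 616 bp for the OCRs with 3 or more SVZ peaks. Only 1.64% were 1000 bp or wider, against 16.9% of all OCRs. By mean CPM over the 29 libraries the median accumbens-called OCR stood at percentile 14.4 of the table, and by the 7 NAc libraries alone at percentile 54.7, with 4.89 CPM against 4.42 for all OCRs. Peaks at these OCRs had a median fold enrichment over local background, by the authors' caller, of 4.76 to 7.45 in the 7 NAc libraries, against 5.51 to 6.10 for all peaks of those libraries. In the set 1 libraries described below, the fold was under that of all peaks in each library, and in the 3 set 2 libraries it was above.

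The widest of them, chrX:37862252-37863810 (rn6, 1559 bp), had 4.89 CPM in the lowest, 7.79 in the middle and 11.2 in the highest NAc library, and 1.27 to 4.33 CPM in the hippocampus. NAc METH replicate 3, at 7.57 CPM, lay within the range of the other NAc libraries here. The narrowest, chr3:103729094-103729309 (216 bp), had 0.554 CPM in NAc METH replicate 3 and 3.42 to 7.66 CPM in the other NAc libraries. Its hippocampal values, from 0.258 to 1.81 CPM, overlapped the NAc values through that library alone.

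The OCRs lay mostly alone. A total of 2034 had no other accumbens-called OCR within 50 kb, 186 runs held 2, 8 runs held 3, and 2 runs held 4. Their share of the OCRs of a chromosome ran from 1.5% on chromosome 10 to 3.65% on chromosome X, with none among 9 OCRs of chromosome Y.

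The first run of 4 spanned chr2:206062049-206135068, in which the table held 12 OCRs. Its members were 260 to 496 bp wide and each had peaks in 6 NAc libraries. The OCR at chr2:206085863-206086358 had the highest values of the run, with 3.67 to 8.18 CPM in the 7 NAc libraries, 2.86 CPM in NAc METH replicate 3, 4.08 to 6.14 CPM in SVZ and at most 2.47 CPM in the hippocampus. It thus separated NAc from hippocampus but not from SVZ. The second run spanned chr6:8505725-8609041, in which 4 of the 7 OCRs were accumbens-called. At chr6:8608313-8609041 in this run, the 7 NAc libraries ran from 4.73 to 13.3 CPM, NAc METH replicate 3 was at 2.58, SVZ saline replicate 3 was at 10.8, the other SVZ libraries ran from 2.64 to 5.98, and the hippocampal libraries did not exceed 2.83 CPM. The OCR chr6:8539003-8539865 of the same run was 1 of the 50 with a peak in all 8 NAc libraries, with 4.52 CPM in METH replicate 3.

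By the mean log2 CPM of the 8 NAc libraries, the highest OCR was chr4:157868057-157869200 (1144 bp), with NAc values of 9.69 CPM in the lowest, 15.7 in the middle and 20.9 in the highest library. It had 8.86 to 23.0 CPM in SVZ and 2.98 to 8.14 CPM in the hippocampus. All NAc libraries lay above all hippocampal libraries, while NAc and SVZ overlapped. It also stood at each limit of the rule, with peaks in 6 NAc, 2 SVZ and 2 hippocampal libraries.

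The next 5 by that measure were as follows, of which the first had a higher median CPM. At chr14:84225814-84226705 the NAc libraries ran from 3.05 CPM in METH replicate 3 over a median of 17.4 to 25.4, and the hippocampal libraries reached 7.16. At chr9:15851934-15853402 they ran from 3.51 CPM in METH replicate 3 over a median of 15.4 to 19.3, against at most 8.77 in the hippocampus. At chr16:20401751-20402056, only 306 bp wide, they ran from 4.43 CPM in METH replicate 3 over a median of 13.4 to 17.3, against at most 8.64. In all 3 cases the other 7 NAc libraries lay above every hippocampal library and METH replicate 3 did not. SVZ ran from 6.65 to 23.2, from 7.22 to 21.9 and from 5.68 to 13.9 CPM, in that order. It was highest in saline replicate 3 each time and overlapped the 7 NAc libraries.

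At chr18:17769337-17769971, which had peaks in all 8 NAc libraries, NAc ran from 6.92 CPM over a median of 11.8 to 19.2, and the hippocampal maximum of 8.67 CPM was again exceeded by every NAc library but METH replicate 3. At chr1:211201667-211202190 NAc ran from 2.31 CPM over a median of 14.1 to 19.5, with at most 5.45 CPM in the hippocampus. SVZ reached 14.7 CPM at the chr18 OCR and 14.9 CPM at the chr1 OCR, both in saline replicate 3, and overlapped NAc.

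A further 4 OCRs were chosen by the gap between the lowest NAc library and the highest library of any other region. At chr13:66524550-66525018 every NAc library, from 2.22 to 5.63 CPM, lay above every other library, the highest of which was SVZ saline replicate 3 at 1.89 CPM, a gap of 0.21 on the log2 scale. At chr15:84124923-84125643 NAc ran from 4.38 to 11.7 CPM, SVZ from 2.43 to 4.02 and the hippocampus from 0.277 to 1.44, a gap of 0.12. At chr16:32180483-32180807 NAc ran from 1.85 to 4.83 CPM and the other regions did not exceed 1.73, a gap of 0.09. The last, chr6:50665957-50666282, overlapped, with 2.49 CPM in the lowest NAc and 2.74 in the highest SVZ library. At these OCRs NAc METH replicate 3 lay within or just below the range of the other NAc libraries, whereas over the whole set it lay below every other NAc library at 2028 OCRs (83.2%, against 20.5% of all OCRs).

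The OCRs just outside each limit are set beside those just inside. With 5 NAc peaks and the other limits met there were 1508 OCRs, with a median of 3.99 CPM over the 7 NAc libraries, against 4.49 for the 1422 with 6 peaks. With 3 SVZ peaks there were 1018, at 6.17 CPM in NAc and 3.86 in the 4 SVZ libraries, against 5.17 and 3.08 for the 1268 with 2. With 3 hippocampal peaks there were 329, at 1.83 CPM in the hippocampus, against 1.61 for the 324 with 2. The OCR with the highest mean NAc level outside each limit had a NAc median above that of each of the 6 OCRs given above. They were chr10:109102058-109102685 with 5 NAc peaks and a NAc median of 22.0 CPM, chr2:189088798-189089885 with 3 SVZ peaks and 20.6 CPM, and chr3:152815151-152815994 with 3 hippocampal peaks and 20.3 CPM. Of the 1508 OCRs with 5 NAc peaks, 1382 lacked a peak in NAc METH replicate 3, and of the 1018 with 3 SVZ peaks, 955 had one in SVZ saline replicate 3.

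Gene names could be attached through 1 supplementary table of the study alone. It covers only OCRs whose human counterparts hold variants from genome-wide association studies of neurological traits. For 9 accumbens-called OCRs such a variant lay in an intron of a gene. It is not a general annotation, so an OCR without such a variant could not be named. Pairings outside introns were not counted. The 6 given here were chosen by the form of the gene name. The pairing is to the human gene and was not checked in the rat. ARPP21 codes for a phosphoprotein of the cAMP pathway that is abundant in striatal projection neurons, and its OCR, chr8:120479533-120479965, had 3.51 to 4.48 CPM in the 7 NAc libraries, 1.20 CPM in NAc METH replicate 3 and 0.430 to 3.74 CPM in the hippocampus. NAc and hippocampus overlapped here, although no SVZ or hippocampal peak was called. CACNA1E codes for the pore subunit of R-type calcium channels, and its OCR, chr13:72082003-72082864, had 7.69 to 15.8 CPM in the 7 NAc libraries, 3.60 in METH replicate 3 and at most 4.72 CPM in the hippocampus.

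CACNA2D3 codes for an auxiliary subunit of calcium channels, and at chr16:5721680-5722215 the 7 NAc libraries ran from 4.77 to 13.4 CPM, with 1.20 CPM in METH replicate 3 and at most 4.09 CPM in the hippocampus. TRPS1 codes for a zinc finger transcription factor, and at chr7:90274797-90275390 they ran from 4.16 to 10.9 CPM against at most 1.43 in the hippocampus. ENOX1 and ASAP2 code for a cell surface oxidase and for a regulator of Arf proteins. At chr15:59841190-59841616 (ENOX1) the 7 libraries ran from 2.95 to 8.11 CPM and the hippocampus reached 1.85 CPM, and at chr6:43231019-43231369 (ASAP2) they ran from 4.07 to 4.84 CPM and the hippocampus reached 1.73. Of the 6 OCRs, 5 had their 7 NAc libraries above all hippocampal libraries, and the ARPP21 OCR did not. That order held at 71.7% of the accumbens-called OCRs and 6.69% of all OCRs. With METH replicate 3 included, it held at the ASAP2 OCR alone. With all SVZ libraries, SVZ overlapped the 7 NAc libraries at each of the 6. SVZ saline replicate 3 had 12.1 CPM at the CACNA1E OCR and 6.62 CPM at the ASAP2 OCR.

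METH and saline were compared at each OCR with edgeR's quasi-likelihood test in 1 model of 8 groups over all 98237 OCRs, with Benjamini-Hochberg adjustment. A difference was called at a fold above 1.5 with an adjusted p under 0.001. The rule summed peaks over both treatments, which had equal numbers of libraries in NAc, DG and CA. However, 2164 of the 2438 OCRs lacked a peak in NAc METH replicate 3, so their NAc peaks came from 4 saline and 3 METH libraries. The NAc comparison with that library is therefore not independent of the rule. Without METH replicate 3 the comparison still depended on the rule, because the 4 libraries of a treatment could not meet the NAc limit alone. OCRs with NAc peaks after METH alone or saline alone were thus kept out, which limits the differences that could be seen. In SVZ the limit of 2 allowed peaks in both METH libraries but not in all 3 saline libraries, so the SVZ comparison, and the contrast between regions that uses it, are not independent of the rule.

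In NAc, no accumbens-called OCR passed this threshold, nor did any other OCR (0% called in each direction), and the lowest adjusted p was 1.00. At an unadjusted p under 0.05, 6 were higher after METH (0.246%, against 1.03% of all OCRs) and 52 were lower (2.13%, against 1.42%). DESeq2 also called none of them, with 10 higher (0.410%, against 1.54%) and 52 lower (2.13%, against 1.62%). The median log2 fold change of the set was -0.28, against -0.01 for all OCRs, and 572 of 2438 were positive. That shift rested on NAc METH replicate 3: without it the median was -0.02, against -0.04 for all OCRs, and 1180 were positive. At an unadjusted p under 0.05, 11 were then higher (0.451%, against 0.778% of all OCRs) and 13 lower (0.533%, against 1.29%). The rule kept out OCRs with NAc peaks after METH alone or saline alone, so nothing is read from these low shares. Leaving out any of the other 7 NAc libraries gave medians from -0.52 to -0.16, and without METH replicate 4 143 were lower at an unadjusted p under 0.05 (5.87%, against 1.88% of all OCRs). With the normalization of the trimmed mean of M values (TMM) the split at an unadjusted p under 0.05 was 9 higher (0.369%, against 1.36% of all OCRs) and 32 lower (1.31%, against 1.10%).

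METH and saline libraries did not overlap at 71 accumbens-called OCRs that were lower after METH (2.91%, against 1.91% of all OCRs) and at 3 that were higher (0.123%, against 1.04%). Without NAc METH replicate 3 these counts were 74 (3.04%, against 4.04%) and 52 (2.13%, against 2.11%). The largest difference among the named OCRs was at chr2:3280184-3280793 (610 bp), with 11.3, 5.20, 4.16 and 9.48 CPM in the saline libraries and 1.01, 3.42, 0.831 and 2.57 CPM in the METH libraries. The log2 fold change was -1.93 ± 0.54 (SE), with an adjusted p of 1.00 by edgeR. The METH libraries were all below the saline libraries, and the libraries of each group were far apart.

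At chr7:133528593-133529324 (732 bp) the saline libraries had 8.08, 4.58, 7.5 and 7.24 CPM and the METH libraries 1.81, 3.05, 2.95 and 4.04, a log2 fold change of -1.20 ± 0.37 (SE). At chr1:243075917-243076534 (618 bp) they had 5.84, 5.70, 6.48 and 5.63 against 1.81, 2.40, 1.38 and 4.74 CPM, a log2 fold change of -1.18 ± 0.41 (SE). Both were chosen because every METH library lay below every saline library, so that order was fixed without METH replicate 3 too.

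The 3 OCRs with higher METH values had smaller differences. At chr16:83831400-83831681 (282 bp) the saline libraries had 2.63, 3.06, 3.20 and 4.01 CPM and the METH libraries 4.13, 5.17, 4.43 and 4.66, a log2 fold change of 0.51 ± 0.25 (SE). At chr14:76997017-76997485 (469 bp) they had 4.29, 4.99, 4.84 and 4.01 against 6.85, 6.55, 5.45 and 6.69 CPM, a log2 fold change of 0.49 ± 0.28 (SE). At chr8:112566824-112567326 (503 bp) they had 2.53, 2.24, 3.34 and 3.16 against 3.42, 3.42, 5.72 and 3.42 CPM, a log2 fold change of 0.50 ± 0.36 (SE), with METH replicate 3 the highest library. None of the 6 passed the adjusted threshold. RUVr, a correction for unwanted variation, was also part of the study's methods, which do not state its number of factors. With 5 RUVr factors, 1 of the 2438 accumbens-called OCRs was called lower after METH, among 18 called lower and 0 higher of all 98237 OCRs. At an unadjusted p under 0.05, 27 were then higher (1.11%, against 4.62% of all OCRs) and 700 lower (28.7%, against 10.3%), with a median of -0.41, and this fit was not repeated without METH replicate 3. The OCR called was chr6:60840696-60841505, with 11.8, 4.58, 7.91 and 12.8 CPM after saline and 2.42, 5.45, 0.369 and 6.14 after METH, which overlapped, and a log2 fold change of -1.74 ± 0.28 (SE, edgeR adjusted p = 0.000817).

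**Figure D4:**
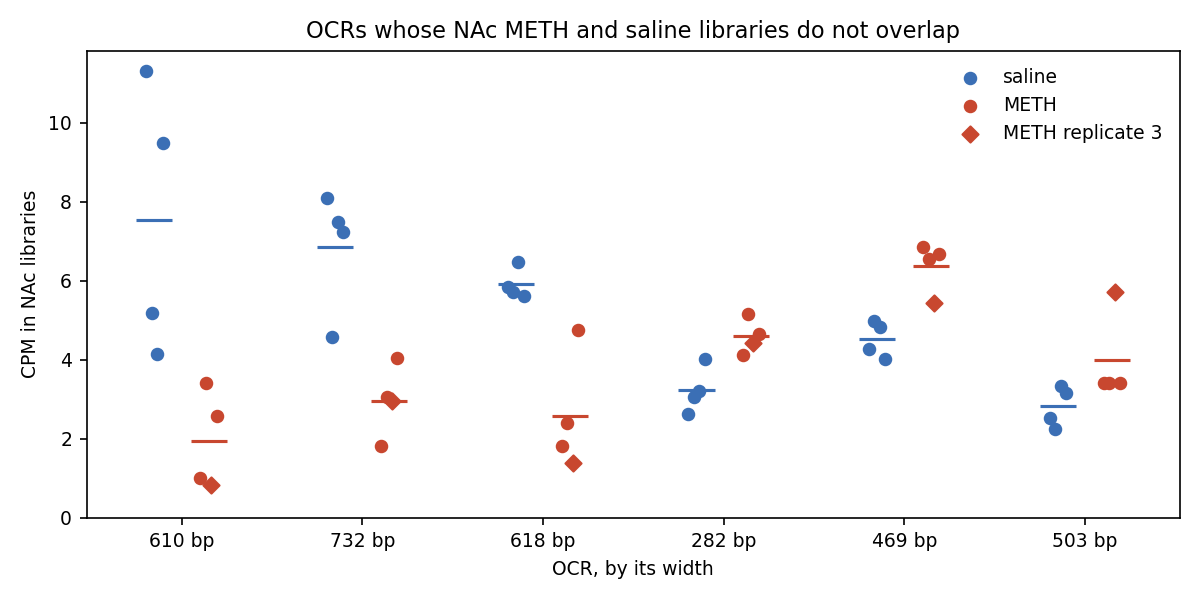
CPM of the 8 NAc libraries (y axis) at the 6 accumbens-called OCRs with the 3 lowest p in each direction among those whose METH and saline libraries did not overlap, each named by its width on the x axis, with points for libraries, bars for group means of 4 and diamonds for METH replicate 3. The 610, 732 and 618 bp OCRs were lower and the 282, 469 and 503 bp OCRs higher in METH libraries.

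In DG, no OCR was called in either direction (0%), with a lowest adjusted p of 0.493. At an unadjusted p under 0.05, 3 accumbens-called OCRs were higher (0.123%, against 3.57% of all OCRs) and 137 were lower (5.62%, against 6.28%). The limit on hippocampal peaks kept out OCRs with peaks in many DG libraries, so nothing is read from the low share that was higher. Without NAc METH replicate 3 and SVZ saline replicate 3, which shared the model's estimate of spread, 8 were higher (0.328%, against 3.15%) and 207 lower (8.49%, against 6.81%). DESeq2 gave no adjusted p at these OCRs, which its filter on low means left out, and had 13 higher (0.533%, against 11.7% of all OCRs) and 80 lower (3.28%, against 4.39%) at an unadjusted p under 0.05. The median log2 fold change was -0.35, and -0.21 relative to the median of all OCRs, which moved from -0.15 to -0.01 with DESeq2's size factors. Leaving out 1 DG library gave medians from -0.61 to -0.21, with 354 lower at an unadjusted p under 0.05 without METH replicate 3 (14.5%, against 19.7% of all OCRs) and 69 without METH replicate 1 (2.83%, against 2.42%). With the 5 RUVr factors 9 of the 2438 were called lower and 0 higher. Of all 98237 OCRs, 2345 were called lower and 2363 higher, a larger share in each direction. DG METH replicates 1 and 4 moved with this shift. Their medians were 0.516 and 0.667 CPM at the accumbens-called OCRs, against 0.774 and 1.18 in the other METH libraries and 0.640 to 1.24 in the saline libraries, and at the 2214 hippocampal OCRs they were 1.89 and 2.19 CPM, against 4.39 to 6.59 in saline libraries. The part of these 2 libraries in the result was not tested beyond leaving out 1 at a time. METH libraries lay wholly below saline libraries at 71 OCRs (2.91%, against 2.01%) and above at 9 (0.369%, against 0.524%).

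In CA, no OCR was called (0% in each direction, lowest adjusted p 1.00), and the median log2 fold change was -0.01, against 0.02 for all OCRs. There were 11 higher (0.451%, against 0.353% of all OCRs) and 15 lower (0.615%, against 0.467%) at an unadjusted p under 0.05, shares close to the background. DESeq2 called none, with 9 higher (0.369%, against 0.289%) and 25 lower (1.03%, against 1.24%). Without overlap between the groups, 17 were higher (0.697%, against 0.483%) and 26 lower (1.07%, against 0.363%). The direction differed between the library sets described below, with a median of 0.28 in set 1 and -0.22 in set 2.

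In SVZ, with 2 METH and 3 saline libraries, no OCR was called (0% in each direction, lowest adjusted p 1.00). At an unadjusted p under 0.05, 4 accumbens-called OCRs were higher (0.164%, against 1.27%) and 11 lower (0.451%, against 2.2%), and DESeq2, which gave no adjusted p at these OCRs, had 5 higher (0.205%, against 1.46%) and 24 lower (0.984%, against 3.15%). The sign of the median turned with 1 library. The median log2 fold change was -0.24 with all libraries and 0.22 without SVZ saline replicate 3, against 0.00 for all OCRs in that case. At an unadjusted p under 0.05, 17 were then higher (0.697%, against 0.477% of all OCRs) and 3 lower (0.123%, against 2.72%). SVZ METH replicate 2, whose tissue tag in the peak names differed from that of the other SVZ libraries, had a median of 3.61 CPM, above the 2.41 of METH replicate 1, and without it the median was -0.57. Without METH replicate 1 the median was 0.00. METH libraries lay wholly above saline libraries at 53 OCRs (2.17%, against 10.6%) and below at 178 (7.30%, against 9.61%), and without saline replicate 3 above at 594 (24.4%, against 17%) and below at 210 (8.61%, against 18.9%).

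**Figure D5:**
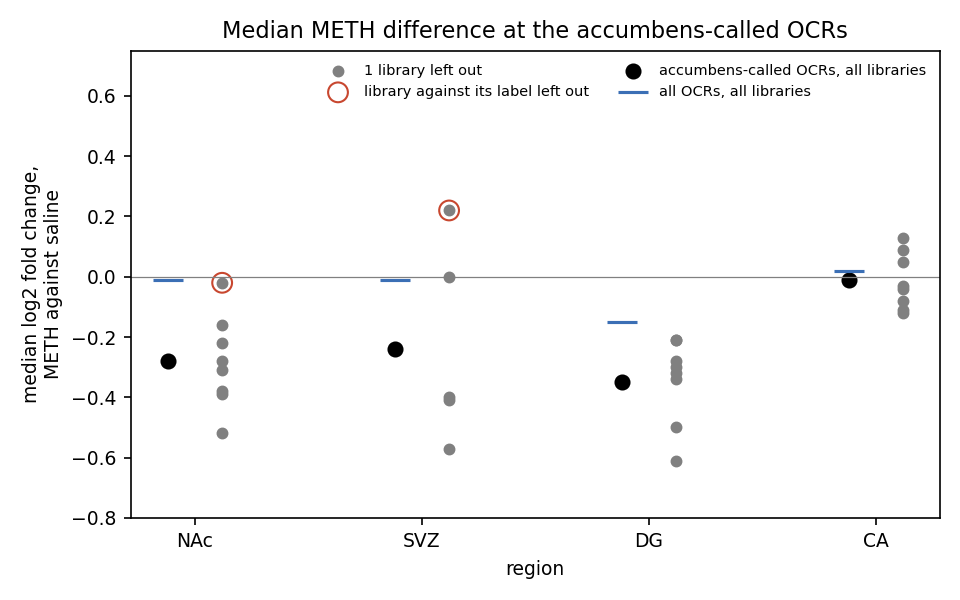
Median log2 fold change of METH against saline (y axis) by region (x axis), with black points for the 2438 accumbens-called OCRs and blue dashes for all OCRs in the 29 libraries, and grey points for the accumbens-called OCRs with 1 library of that region left out. The circled points leave out NAc METH replicate 3, which moves the NAc median from -0.28 to -0.02, or SVZ saline replicate 3, which moves the SVZ median from -0.24 to 0.22.

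Whether the METH difference in NAc departed from that in the other regions was tested by a contrast of the NAc difference with the mean of the other 3. No OCR was called (0% in each direction, lowest adjusted p 1.00), 11 accumbens-called OCRs were higher (0.451%, against 0.723% of all OCRs) and 12 lower (0.492%, against 0.555%) at an unadjusted p under 0.05, and DESeq2 called none, with 13 higher (0.533%, against 1.14%) and 14 lower (0.574%, against 0.743%). TMM gave 10 higher (0.410%, against 0.973%) and 6 lower (0.246%, against 0.488%). The median was -0.08, and 0.18 without NAc METH replicate 3, 0.03 without both libraries that went against their labels, and -0.20 with the animal as a block. With the block and without both libraries it was 0.09. It was -0.32 in library set 2 alone, and -0.25 with 5 RUVr factors, when 54 were higher (2.21%, against 4.28%) and 280 lower (11.5%, against 6.30%) at an unadjusted p under 0.05. The direction changed with the libraries left out.

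The OCR chr2:3280184-3280793, given above, also had 1 of the 2 strongest negative contrasts, -1.98 ± 0.65 (SE). The other was at chr11:14620886-14621695, with 9.06, 7.33, 7.5 and 11.3 CPM in the NAc saline and 1.81, 4.25, 0.554 and 7.85 CPM in the NAc METH libraries, a contrast of -2.05 ± 0.68 (SE). METH replicate 4 overlapped the saline libraries there. The strongest positive contrasts were at chr16:72846299-72846877, with 1.36, 3.26, 4.57 and 3.31 CPM after saline and 9.87, 2.77, 4.89 and 12.4 after METH, and at chr6:110932606-110933264, with 3.60, 4.48, 4.36 and 5.16 CPM after saline and 9.47, 7.94, 4.34 and 7.39 after METH. The contrasts were 1.76 ± 0.57 and 1.09 ± 0.40 (SE), the NAc groups overlapped at both, and no adjusted p was under the threshold.

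The rule summed DG and CA, so it did not set which of them was higher. Its limit of 2 hippocampal peaks kept out any OCR with peaks in 3 or more libraries of either, which limits the differences that could be seen. The OCRs left had a median of 0.944 CPM over the 16 DG and CA libraries. DG and CA were compared at them in the 15 saline libraries, with a threshold of a log2 fold change above 1 and an adjusted p under 0.01. No OCR was called (0% in each direction), with a lowest adjusted p of 1.00. At an unadjusted p under 0.05, 45 were higher in DG (1.85%, against 0.783% of all OCRs) and 10 higher in CA (0.410%, against 0.11%). Same-numbered DG and CA libraries came from the same animal, and with the animal as a block the share higher in DG was near the background, with 63 (2.58%, against 2.32%), and 17 were higher in CA (0.697%, against 0.207%). DESeq2 called none, with 28 higher in DG (1.15%, against 0.394%) and 22 in CA (0.902%, against 0.674%). TMM gave 27 (1.11%, against 0.399%) and 13 (0.533%, against 0.239%). The median log2 difference was 0.12, and 0.07 relative to all OCRs, with DESeq2's median of all OCRs lower by more than 0.1 at -0.08. In the METH libraries the median was -0.20. Leaving out 1 saline library gave medians from -0.01 without DG replicate 3 to 0.27 without DG replicate 2, and without CA replicate 4 142 were higher in DG at an unadjusted p under 0.05 (5.82%, against 5.58% of all OCRs).

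The lowest p for a DG excess was at chr6:25148692-25149127, with 1.52, 1.55, 3.30 and 2.78 CPM in DG saline and 0.623, 0.656, 1.23 and 0.827 CPM in CA saline libraries, a log2 difference of 1.45 ± 0.43 (SE). In METH libraries the order was turned, with 0.258, 0.688, 0.394 and 0.572 CPM in DG and 1.30, 0.760, 1.96 and 1.76 CPM in CA. At chr15:62873942-62874778 DG saline had 0.953, 0.731, 2.27 and 1.17 CPM and CA saline 0.415, 0.394, 0.436 and 0.551, a log2 difference of 1.47 ± 0.46 (SE), which was -0.34 in METH libraries. The groups did not overlap at either OCR, and neither passed the adjusted threshold.

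Higher in CA were chr13:91949274-91949811, with 0.0953, 0.274, 0.412 and 0.659 CPM in DG and 0.831, 0.722, 2.11 and 0.735 in CA saline libraries, and chr17:33896419-33897031, with 0.191, 0.0914, 1.13 and 0.293 CPM in DG and 1.11, 0.591, 2.76 and 0.735 in CA. Their log2 differences were -1.53 ± 0.56 and -1.61 ± 0.63 (SE). The lowest of these DG values correspond to 1 read, and DG saline replicate 3 overlapped CA at the second OCR.

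The NAc libraries fell into 2 sets by the spelling of the prefix of their peak names and by animal number, with replicates 1 and 2 of each treatment in set 1 and replicates 3 and 4 in set 2. Median CPM over the accumbens-called OCRs was 4.29, 3.67, 3.93 and 4.62 in set 1 and 5.45, 6.05 and 5.75 in set 2 without METH replicate 3. These 3 set 2 libraries lay above all set 1 libraries, and METH replicate 3, also of set 2, lay below them at 1.38 CPM. With treatment in the model and METH replicate 3 left out, the median log2 difference of set 2 from set 1 was 0.47, against -0.09 for all OCRs, and 2215 of 2438 OCRs were positive. No test is given, because the rule counted peaks in these same libraries and set 2 had more of them. The 3 set 2 libraries lay above the 4 set 1 libraries at 664 accumbens-called OCRs (27.2%, against 7.56% of all OCRs) and below them at 2 (0.082%, against 16%). With METH replicate 3 included the median was 0.15. The median difference of METH from saline was 0.13 within set 1 and -0.65 within set 2, where METH replicate 3 was 1 of 2 METH libraries.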

How the data were processed

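The authors aligned ATAC-seq reads to rn6, called peaks in each of the 29 libraries with the AIAP pipeline, merged them with bedtools into OCRs and deposited raw read counts per OCR. The deposited peak lists give a fold enrichment (a ratio to local background) and −log10 p and q. The counter of reads and the aligner's settings are not given in the sources used here. Depth was 7.55 to 19.44 M counts per library, and PCR copies are not independent molecules.

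OCRs were matched to the peaks of each library with bedtools 2.31.1 at an overlap of at least 1 bp, and tallied in Python 3.11.15 with pandas 2.3.3. Counts were scaled by upper quartile and fitted in edgeR 4.0.16 (R 4.3.3) by the quasi-likelihood test, with 8 groups of region and treatment over 29 libraries. The filter on low counts kept all 98237 OCRs. DG against CA used the 15 saline libraries. p-values were adjusted by Benjamini-Hochberg over all OCRs. Log2 CPM used a prior count of 2. The test was tried on simulated data with known changes.

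Accumbens-called OCRs and gene lists were chosen with earlier results of these data known. Named OCRs were the 6 highest in NAc, the 4 with the largest gap to the other regions, the 3 lowest p in each direction for METH in NAc among groups without overlap, the 2 lowest p in each direction for DG against CA and for the contrast of METH differences, the 2 longest runs within 50000 bp, the widest and narrowest, and the highest on each side of each limit. OCRs with a gene in the study's supplementary table, and those called with RUVr, were added after their values were seen. Lists of cell type genes could not be applied without an rn6 annotation.

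Alternatives were TMM, DESeq2 1.42.0, a minimum mean CPM of 1, 5 RUVr factors, library set, replicate block and each library left out. Replicate numbers mark the same animal in DG and CA, by the animal numbers in the peak names, and the deviations of same-numbered DG and CA saline libraries correlated at r = -0.338 to 0.663. METH and saline libraries with 1 number are of different animals. That libraries of a group are separate animals rests on those numbers.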

Additional observations from a re-analysis of the deposited data

Results flagged for a closer look

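A total of 10 values stood apart from the other libraries of their group by Dixon's test, which chance alone does for about 1 in 20 groups. The share of accumbens-called OCRs with a peak was 11.24% in NAc METH replicate 3, lowest of the 4 METH and of the 8 NAc libraries. It was 3.158% in DG METH replicate 3 and 13.82% in CA saline replicate 4, each the highest of 4. The rule chose the OCRs by these same peak calls, so nothing is read from Dixon's test of these shares.

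At the named OCRs the test covered 96 groups of 4, which are only part of them, and 6 of these groups held such a library. At chr14:84225814-84226705, CA METH replicate 1 was highest with 6.34 CPM. At chr16:20401751-20402056, DG METH replicate 2 was lowest with 2.323 CPM. At chr15:84124923-84125643, NAc METH replicate 4 was highest with 11.74 CPM. At chr8:112566824-112567326, NAc METH replicate 3 was highest with 5.724 CPM, DG METH replicate 1 lowest with 0.5162 CPM and CA saline replicate 1 lowest with 1.108 CPM. The causes of these values were not tested.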

How the results depend on the processing

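The number of accumbens-called OCRs depended on the rule. It was 165 with no peak allowed elsewhere and 50 with peaks required in all 8 NAc libraries, and ran from 1020 without NAc saline replicate 4 to 3393 without SVZ saline replicate 3 when 1 library was left out. Without NAc METH replicate 3 it was 2303. With a −log10 q above 5 it was 2495, of which 1905 were shared. With 5 RUVr factors 1 of the 2438 accumbens-called OCRs was called in NAc, among 18 called in the table of 98237. In DG 9 of the 2438 were called, all lower, against 2345 lower and 2363 higher of the 98237, a larger share in each direction. In the other settings of these 2 comparisons 0 were called. The CA median was 0.28 in library set 1 alone, and the median of set 2 against set 1 was 0.15 with NAc METH replicate 3. With METH in place of saline libraries, the DG and CA difference turned to -1.59 at chr6:25148692-25149127 and to -0.34 at chr15:62873942-62874778. With the replicate block, 0 accumbens-called OCRs were called in each comparison, as without it, and the pairing of METH and saline libraries was by number alone, with correlations of their deviations from -0.261 to 0.688. Median log2 fold changes with the replicate block were -0.25 (NAc), -0.35 (DG), 0.02 (CA) and -0.07 (SVZ), and 0.13 for DG against CA. Apart from saline replicate 1, SVZ libraries came from other animals than the same-numbered libraries of the other regions, so the block does not follow the animal there. Leaving out 1 library gave medians of -0.52 to -0.02 (NAc), -0.61 to -0.21 (DG), -0.12 to 0.13 (CA) and -0.57 to 0.22 (SVZ). The cause of these changes was not tested. At about 1 CPM in the hippocampus, depth limits what a difference there can show.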
